A study of Mus musculus with 19 samples.

Results

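The comparison set plantaris tendon of Scx- mice after 14 days of a growth stimulus against plantaris tendon of Scx- mice after 7 days, across all genes of the deposited table. It rests on 8 of the 19 RNA sequencing libraries of the series, 4 from each day, which were picked by the genotype and the day in their labels and not by any measured value. The Scx- mice carry what the study's title calls a targeted deletion of scleraxis, and both the day 14 and the day 7 mice had received tamoxifen. Beside them stand 4 Scx+ libraries from day 14 and 4 from day 7, from mice that had also received tamoxifen, and 3 libraries from Scx+ control mice with neither tamoxifen nor the stimulus. The alleles, any recombinase and the promoter that drives it, the kind of stimulus, the strain, the sex and the age are not given in the labels. None of the 19 libraries came from Scx- mice without the stimulus. The labels do not say whether the libraries of a group came from separate animals, so every p-value measures the spread between these samples, which may be technical.

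Scleraxis is a basic helix-loop-helix transcription factor of tendon progenitors and tenocytes, known for its control of tenomodulin and of collagen genes. A growing tendon lays down new matrix through dividing fibroblasts, with macrophages and other immune cells nearby. Type I interferons signal through a receptor found on most cells to a transcription factor complex that includes STAT2 and IRF9 and binds response elements beside antiviral genes, and IRF7 in turn raises interferon production. Plantaris tendon ends in muscle, so a dissected piece can hold muscle fibres.

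Signal, a read-based value scaled by the authors, summed to 36600000 to 48000000 units per library in Scx- day 14 and to 41400000 to 46200000 units in Scx- day 7, and 16899 to 17715 genes at day 14 and 17469 to 18460 genes at day 7 had a value above 0. All values below were divided by the library's median ratio to the mean library. That factor was 0.838 to 0.857 in Scx- day 14 and 1.01 to 1.03 in Scx- day 7, so the day 14 libraries stood apart on the authors' scale, and the part of this offset in the results was tested only by the other scalings given below. Scx had 5.8, 2.5, 4.9 and 1.7 units in the 4 Scx- day 14 libraries and 17.2, 9, 8.9 and 5.7 units in the 4 Scx- day 7 libraries, against a mean of 3995 units in Scx+ day 14 and 4930 units in Scx+ day 7. The lowest day 7 value lay just under the highest day 14 value, and the means of 3.73 ± 1.97 units at day 14 and 10.2 ± 4.91 units at day 7 (SD, n = 4 each) had an exact permutation p of 0.0571, two-sided, where 0.0286 is the smallest that 4 against 4 allow. In limma the change of Scx was -1.08 ± 0.39 on the log2 scale (adjusted p = 0.117). Scx was low in all 8 Scx- libraries beside either Scx+ group.

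Muscle RNA differed between these libraries. The 28 listed muscle fibre genes made up 17.9%, 20.8%, 4.97% and 4.75% of the signal in replicates 1 to 4 of Scx- day 14, and 2.73%, 4.03%, 6.90% and 0.421% in Scx- day 7. Replicates 1 and 2 of day 14 thus stood far above the other 6 libraries, while replicates 3 and 4 overlapped day 7. In Scx+ tendon the share was 0.305% to 9.63% at day 14 and 0.0421% to 2.41% at day 7, and in the controls 27.5% to 33.0%. None of the 28 was at 0 in both Scx- groups. In bulk tissue fewer cells of a type and less RNA per cell cannot be told apart.

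Across 16625 tested genes, far more fell than rose between day 7 and day 14 in Scx- tendon. At an adjusted p under 0.05 (limma, Benjamini-Hochberg), 873 genes or 5.25% changed. Of these, 641 genes (3.86% of those tested) were lower at day 14 and 232 genes (1.4%) were higher. These shares are the background for every count of called list members below. Lower genes made up 73.4% of the calls on this scale, 91.5% when the values were divided by library totals and 95.7% on the authors' own scale, and the median change of all tested genes was -0.20 by totals and -0.24 on the authors' scale. Among the falls, 421 were at least 2-fold, 117 at least 4-fold and 48 at least 8-fold, against 96, 24 and 8 among the rises. The 4 libraries of one day did not overlap the 4 of the other for 593 of the called falls and 186 of the called rises. Over all tested genes, with or without a call, the groups stood apart downward for 8.37% and upward for 4.08%. The largest rises and falls named below were picked among genes whose groups stood apart, so their separation follows from the choice. The median change was 0.02 for all tested genes, -1.22 for the falls and 0.88 for the rises. Without the muscle-rich pair of day 14 libraries 281 genes were called, of which 187 falls and 28 rises were shared with the 873. The number called was 427, 555 and 1481 without replicate 1, 2 or 4 of day 14, and 370 and 380 without replicate 2 or 4 of day 7.

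Genes of the interferon response were among the deepest falls. All 35 listed interferon-induced genes fell, with a median of -2.78 and a range from -5.31 for Mx1, a GTPase that blocks virus replication, to -1.27 for Irf9, the DNA-binding partner of STAT2. The background for lower calls is 3.86% and the median of all tested genes 0.02. In each of the 35 genes the 4 day 14 values lay below the 4 day 7 values, as they did in 8.37% of all tested genes. Irf7, the interferon regulatory factor that feeds the loop forward, had the smallest p of all genes in the list. Its values were 1095, 1064, 602 and 598 units in Scx- day 14, against 6581, 13983, 11203 and 9531 units in Scx- day 7, and its change was -3.63 ± 0.27 (adjusted p = 1.62e-06). Even the highest day 14 library was far below the lowest day 7 library. Mx1 had 93, 49.8, 78.4 and 56.9 units at day 14, against 1384, 8618, 2806 and 1732 units at day 7, a change of -5.31 ± 0.73 (adjusted p = 0.000454). Replicate 2 was the highest library of day 7 in Mx1 and in 32 of the 35 genes. Isg15, a ubiquitin-like protein joined to other proteins during the response, had 163, 106, 165 and 257 units at day 14, against 1162, 4602, 3487 and 1559 units at day 7 (-3.80 ± 0.41, adjusted p = 0.000112). Bst2, which tethers budding virus to the cell surface, had 1199.7, 1232, 1240.3 and 1376 units at day 14, against 4309.8, 6180.1, 7674 and 6682 units at day 7 (-2.27 ± 0.20, adjusted p = 6.31e-06). Its day 14 libraries lay closer together than those of the other genes shown here.

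Sensors, effectors and brakes of the response were all among the falls. The log2 changes were -1.94 and -1.76 for Ifih1 and Ddx58, sensors of viral RNA, and -3.04 for the nucleic acid sensor Zbp1. Oas3, Oas2 and Oas1a, synthases of the oligoadenylate signal that activates RNase L, changed by -4.74, -2.89 and -2.86. The Ifit genes, whose products bind foreign RNA, changed by -3.98 (Ifit1), -2.77 (Ifit2) and -3.67 (Ifit3). Rsad2 (viperin), an antiviral radical enzyme, had 207, 31.9, 264 and 260.2 units at day 14, against 1856, 11668, 2963 and 952 units at day 7, a change of -4.23 ± 0.73 (adjusted p = 0.00302). Replicate 2 of day 14 was far below the other 3, and no day 14 library reached the lowest of day 7. Stat2 changed by -1.84 and the brake Usp18, which cuts Isg15 from proteins and dampens the receptor, by -2.78. Oas, Ifit, Mx and Slfn genes have close copies between which reads can be split, so single members of these families are uncertain, and the exons of Irf7 and Cxcl10 overlap genes on the other strand (Phrf1 and Art3) with no statement of stranded counting.

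**Figure D1:**
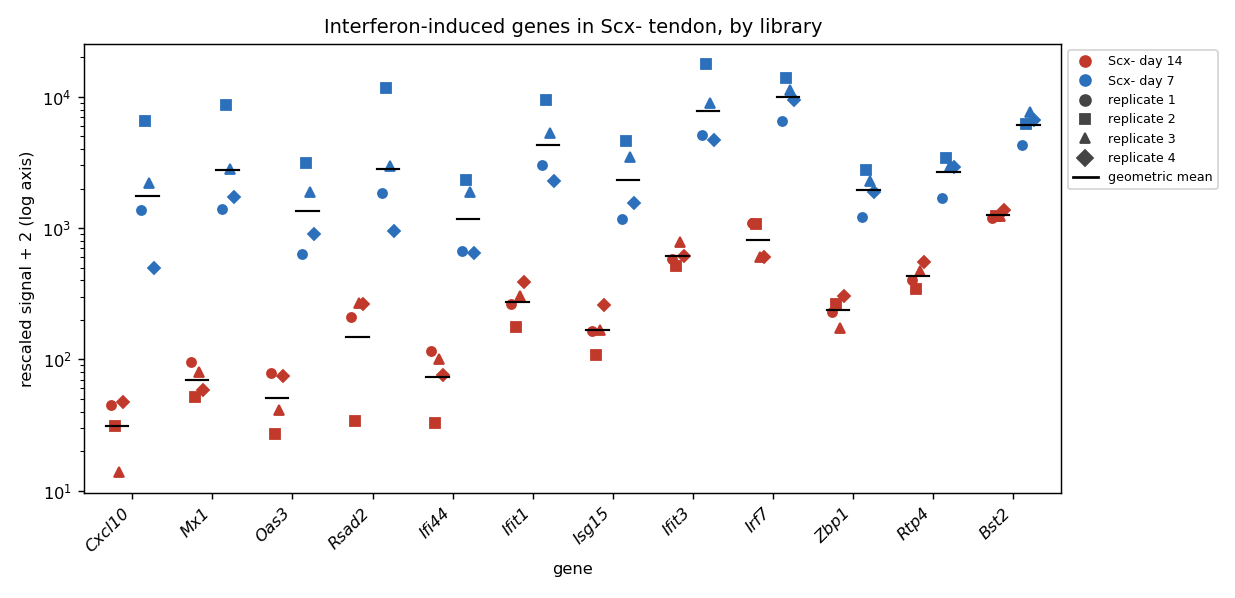
Rescaled signal plus 2 on a log axis for 12 genes of the interferon response in each Scx- library, with day 14 in red left of day 7 in blue, marker shape for the replicate and a bar for the geometric mean of 4 libraries. For every gene shown the 4 day 14 points lie below the 4 day 7 points, from 43.3, 29, 11.8 and 45.4 units in Cxcl10 at day 14 upward.

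As a share of all signal, the 35 genes took 0.0280% to 0.0539% in Scx- day 14 and 0.181% to 0.460% in Scx- day 7. The same share was 0.0531% to 0.0794% in Scx+ day 14, 0.0651% to 0.134% in Scx+ day 7 and 0.0198% to 0.0318% in the controls. The Scx- day 7 mean was the highest of the 4 stimulated groups in all 35 genes, and the Scx- day 14 mean was the lowest of the 4 in 33. It was above the control mean in 32 of the 35. The number of these genes called was 25 to 35 under every other setting tried, with 28 of them without the muscle-rich pair.

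Interferon response elements repeat the bases GAAA with a short gap, and the promoters show where they lie. RefSeq promoter windows on GRCm38.p6, from 250 bases before to 50 after the annotated start, were matched by symbol for 24 of the 35 genes. The letters GAAANNGAA, searched on both strands with overlapping matches allowed, occurred in 15 of the 24, and in 9.76% of the 27025 genes of the RefSeq table. The 4 called genes of smallest p that hold the motif are printed 5′ to 3′ on the gene's strand, with the matching bases in capitals, on the reverse strand where they read TTC first.
Bst2, chr8:71537423-71537722, minus strand: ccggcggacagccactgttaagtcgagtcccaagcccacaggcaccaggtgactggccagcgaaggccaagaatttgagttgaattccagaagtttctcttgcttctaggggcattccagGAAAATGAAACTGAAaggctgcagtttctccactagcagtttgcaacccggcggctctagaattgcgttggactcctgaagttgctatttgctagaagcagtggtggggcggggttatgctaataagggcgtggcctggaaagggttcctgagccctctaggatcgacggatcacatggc
Isg15, chr4:156200769-156201068, minus strand: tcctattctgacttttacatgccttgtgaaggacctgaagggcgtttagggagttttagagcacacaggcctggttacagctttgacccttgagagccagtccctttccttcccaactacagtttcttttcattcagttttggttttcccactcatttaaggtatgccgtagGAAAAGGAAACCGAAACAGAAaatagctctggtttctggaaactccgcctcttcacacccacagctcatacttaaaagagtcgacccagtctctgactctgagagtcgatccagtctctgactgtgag
Oas3, chr5:120777610-120777909, minus strand: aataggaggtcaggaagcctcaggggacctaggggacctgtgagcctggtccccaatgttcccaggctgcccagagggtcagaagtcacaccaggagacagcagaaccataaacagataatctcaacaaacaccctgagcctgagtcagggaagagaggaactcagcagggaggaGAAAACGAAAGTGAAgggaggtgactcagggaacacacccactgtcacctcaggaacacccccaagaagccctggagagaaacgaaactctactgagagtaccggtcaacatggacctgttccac
Ifit3, chr19:34583279-34583578, plus strand: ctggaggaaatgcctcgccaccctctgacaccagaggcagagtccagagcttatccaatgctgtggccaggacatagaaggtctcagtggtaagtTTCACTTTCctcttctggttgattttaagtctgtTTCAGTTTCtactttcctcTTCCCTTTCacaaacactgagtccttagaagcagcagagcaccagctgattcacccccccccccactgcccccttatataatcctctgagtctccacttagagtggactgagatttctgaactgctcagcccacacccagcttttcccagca
Isg15 holds 3 overlapping matches from 78 bases before its start, Bst2 and Oas3 hold 2 overlapping matches each from 130 and 75 bases before the start, and Ifit3 holds 3 separate matches on the other strand between 155 and 102 bases before it. A match is a description of these letters and was not tested as a binding site.

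Part of the interferon-induced GTPases of the GBP and IRG families, which coat the vacuoles of intracellular parasites, fell. Of 15 tested members 8 were lower, 1 was higher and 6 did not pass the test, with a median of -1.69. Gbp3 had 622, 388, 679 and 706 units in Scx- day 14, against 1840.1, 4816, 3932 and 2328 units in Scx- day 7 (-2.36 ± 0.30, adjusted p = 0.000219), and Irgm1, which controls autophagy and vacuole membranes, had 1131, 1329, 1001 and 1149.6 units at day 14, against 2694, 5970.3, 4325 and 3359 units at day 7 (-1.77 ± 0.30, adjusted p = 0.00208). Neither gene's groups overlapped. Gbp2b (chromosome 3, 142594847 to 142619179, GRCm38) went the other way, with 254, 9.8, 336 and 252 units at day 14, against 0, 0, 2.4 and 1.6 units at day 7. It was listed at or near 0 in all 4 day 7 libraries, in the Scx+ libraries (0 to 5.2 units) and in 2 of the 3 controls, and replicate 2 of day 14 was far below the other 3 of that day. Only replicates 1, 3 and 4 of Scx- day 14 and a control at 21.5 units reached the 10 units needed in 3 libraries for testing. The gene was thus tested only because it was high at day 14, and its p is no independent support for the rise. Its change of 5.49 ± 0.96 (adjusted p = 0.00273) depends on the added 2 units, and its close copies make the count uncertain. Of the 15 members 5 were called lower without replicate 1 of day 14 or replicate 2 of day 7, 4 with the Scx- groups fitted alone and 3 without the muscle-rich pair.

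Genes of antigen presentation by MHC class I fell as well, by smaller folds. Of 16 class I and peptide loading genes 11 fell and none rose, with a median of -1.16, and all 16 values were negative. The heavy chain H2-K1 had 10632, 13189, 13342 and 11444 units in Scx- day 14, against 23128, 30164, 24492 and 33686 units in Scx- day 7 (-1.19 ± 0.14, adjusted p = 0.000128). The peptide transporter subunit Tap1 had 960.1, 818, 1146 and 811 units at day 14, against 2265, 4824, 3596 and 3064 units at day 7 (-1.84 ± 0.22, adjusted p = 0.000136), and the immunoproteasome subunit Psmb10 had 832, 914, 1023 and 1043 units at day 14, against 1603, 2499, 2071 and 2411 units at day 7 (-1.15 ± 0.15, adjusted p = 0.000297). No library of one day reached those of the other in these 3 genes. MHC class II, made by antigen-presenting cells, did not pass the test in any of 8 members (median -0.49). Its invariant chain Cd74 had 2500.1, 10737, 13826 and 13497 units at day 14 and 10895, 6651, 11609 and 23049 units at day 7, with overlapping groups (-0.49 ± 0.52, adjusted p = 0.616). Classical class I genes are near copies of each other. Without the muscle-rich pair 7 class I genes were called.

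Chemokines that draw monocytes, T cells and natural killer cells were among the steepest falls. Of 22 chemokines and receptors 8 fell and none rose, with a median of -1.41, beside 3.86% lower over all tested genes. Cxcl10, an interferon-induced ligand of the receptor CXCR3, had 43.3, 29, 11.8 and 45.4 units in Scx- day 14, against 1372, 6528, 2192 and 494 units in Scx- day 7. No library of one day came near those of the other. Its change of -5.84 ± 0.84 was the largest among the genes named by rule (adjusted p = 0.000636). Cxcl9, another CXCR3 ligand, had 44.2, 51.7, 9.5 and 90.5 units at day 14, against 644, 779.8, 904 and 473 units at day 7 (-4.08 ± 0.82, adjusted p = 0.00768). The monocyte attractant Ccl2 had 207, 460.2, 470.5 and 663 units at day 14, against 1540.4, 4731, 1568 and 3346 units at day 7 (-2.58 ± 0.53, adjusted p = 0.00883). The 3 genes did not overlap between days. Cxcl9 and Ccl2 lost their call without the muscle-rich pair, where 2 of the 22 were called, and 5 were called without replicate 1 or 3 of day 14 or replicate 2 or 4 of day 7.

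Macrophage and monocyte genes fell too. Of 24 listed genes 13 were lower and none was higher, beside 3.86% lower over all tested genes. The median was -1.38, and all 24 values were negative. Ly6c2, a surface marker of inflammatory monocytes, had 56, 102, 18.5 and 89.4 units in Scx- day 14, against 639.9, 626, 509.9 and 1115 units in Scx- day 7 (-3.58 ± 0.60, adjusted p = 0.00216). The high-affinity IgG receptor Fcgr1 had 484, 930, 447 and 813 units at day 14, against 2088, 5204, 3309 and 4512 units at day 7 (-2.48 ± 0.30, adjusted p = 0.000136). Both genes are also induced by interferon in mouse cells. General macrophage genes fell as well. Adgre1, which encodes the F4/80 antigen, had 1504, 3342, 2373 and 2657 units at day 14, against 4044, 6492, 5502 and 11411 units at day 7 (-1.42 ± 0.32, adjusted p = 0.0142), and the lysosomal marker Cd68 had 2518, 5165, 2593 and 3674 units at day 14, against 5724, 9725, 5370 and 13059 units at day 7 (-1.24 ± 0.27, adjusted p = 0.011). Neither gene's groups overlapped, and replicate 1 of day 14 was the lowest library for both. Together the 24 genes took 0.145% to 0.377% of the signal in Scx- day 14 and 0.468% to 1.12% in Scx- day 7, and none of them was at 0 in both groups. The summed shares did not overlap between days and were lower at day 14, as were those of the interferon genes. By library the 2 lists differed, since the day 7 share was highest in replicate 4 for macrophage genes (1.12%) and in replicate 2 for interferon genes (0.460%). The part of the macrophage genes in the interferon falls was not tested. Adgre1 lost its call without replicate 1 of day 14, replicate 4 of day 7 or the muscle-rich pair. With the Scx- groups fitted alone neither Adgre1 nor Cd68 was called. The count of lower members was 5 without replicate 1 of day 14, 6 without replicate 2 of day 7, 5 without replicate 4 of day 7 and 5 without the muscle-rich pair. That count was 2 with the Scx- groups fitted alone.

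Transcripts typical of natural killer and cytotoxic cells were low at day 14. Of 17 lymphocyte genes 4 fell and none rose (median -1.38), beside 3.86% lower over all tested genes. Those 4 were Gzma, Gzmb, Ncr1 and Nkg7, and all belong to the killing machinery or surface of these cells. Gzma, a granule protease, had 18.9, 39.2, 5.2 and 8.1 units in Scx- day 14, against 114, 866, 279 and 471 units in Scx- day 7 (-4.43 ± 0.68, adjusted p = 0.000978). Gzmb, another granule protease, had 26.7, 28.8, 16 and 35.8 units at day 14, against 104, 765, 323 and 227 units at day 7 (-3.32 ± 0.76, adjusted p = 0.0155). Ncr1, the activating receptor NKp46, had 0, 8.1, 2.6 and 2.4 units at day 14, against 20.8, 50.5, 17.8 and 49.4 units at day 7 (-2.88 ± 0.61, adjusted p = 0.00985). These 3 genes did not overlap between the days. Nkg7 reached 8, 59.3, 7.6 and 10.6 units at day 14, against 60.2, 121, 107 and 64.3 units at day 7 (-2.38 ± 0.67, adjusted p = 0.0458), and its call was lost on leaving out any 1 of 7 of the 8 libraries, all but replicate 2 of day 14. The call of Gzmb was lost without replicate 2 of day 7, without the muscle-rich pair and with muscle as a covariate. Levels were low, and folds of such genes depend on the added 2 units. The anti-inflammatory cytokine Il10 was also low at day 14, with 3.3, 14.3, 6.3 and 8.5 units, against 79.9, 128, 56.6 and 65.3 units at day 7 (-3.11 ± 0.66, adjusted p = 0.0103). Il10 lost its call without the muscle-rich pair and with sample quality weights.

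**Figure D2:**
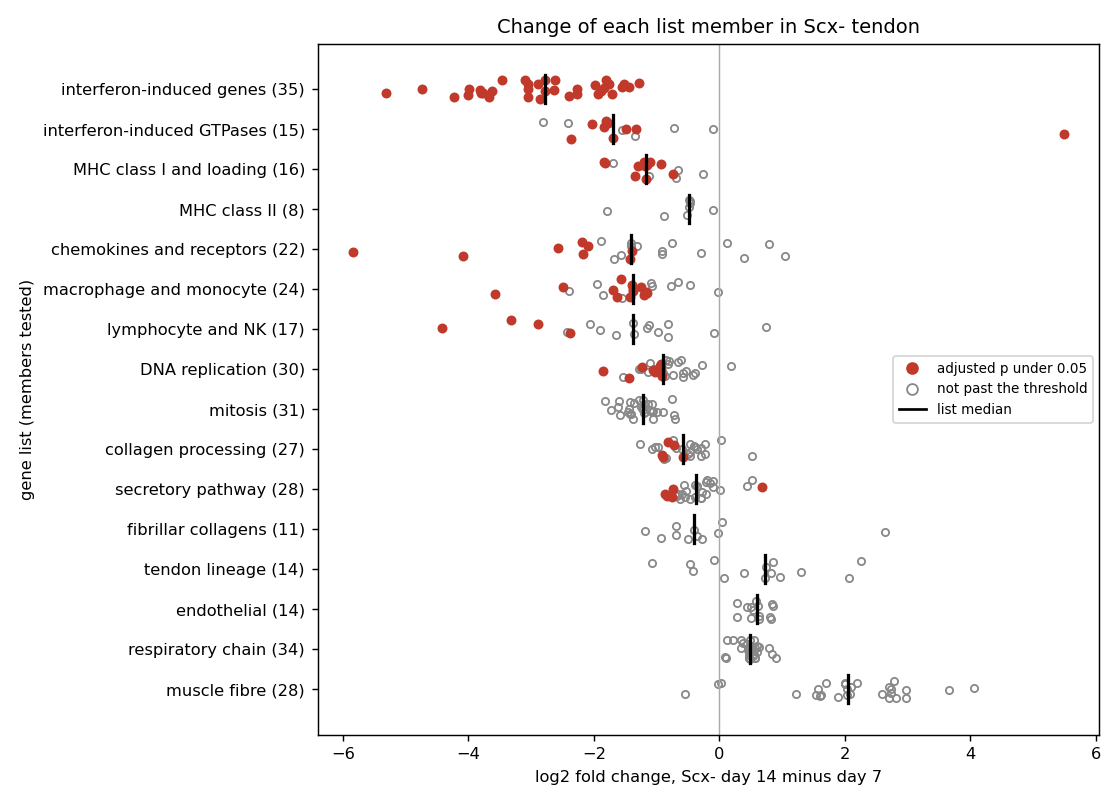
Log2 fold change, Scx- day 14 minus day 7, of each tested member of 16 gene lists, with filled points for members past the threshold, open points for the others and a bar at the list median. The interferon-induced genes lie wholly left of 0 with a median of -2.78, and the muscle fibre genes have a median of 2.06 with no member past the threshold.

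Some of the DNA replication genes were lower at day 14. Of 30 tested members 9 fell and none rose, with a median of -0.90, beside 3.86% lower over all tested genes. Mcm3, a subunit of the replicative helicase, had 764, 600.4, 715 and 672 units in Scx- day 14, against 1120.4, 1465, 1209 and 1521 units in Scx- day 7 (-0.94 ± 0.19, adjusted p = 0.00719), and the subunit Mcm6 had 1418, 1065, 1222 and 1161 units at day 14, against 1875, 2913, 2418 and 3044 units at day 7 (-1.06 ± 0.21, adjusted p = 0.00813). Uhrf1, which keeps DNA methylation through replication, had 578, 259, 314 and 318 units at day 14, against 1050.2, 1248, 1187 and 1676 units at day 7 (-1.86 ± 0.41, adjusted p = 0.0124). No library overlapped in these 3 genes. The other 6 were the helicase subunits Mcm4 and Mcm5, the licensing factor Cdt1, the primase subunit Prim1, the ribonucleotide reductase subunit Rrm1 and the ligase Lig1. Mitosis genes had a lower median, -1.22, and all 31 values were negative, but none of the 31 passed the test. Their groups stood apart downward in 24 of the 31, against 8.37% of all tested genes. The proliferation marker Mki67 had 2465, 1301, 1491 and 1344 units at day 14 and 4670.3, 4625, 3780.3 and 6690.1 units at day 7, with no overlap (-1.60 ± 0.71, adjusted p = 0.199). All groups share 1 estimate of the spread, and in Scx+ day 14 Mki67 had 4291, 4449, 1480 and 247 units. The part of that spread in the missing calls was not tested. In the authors' deposited table Mki67 (-1.57) and Top2a (-1.63), the mitosis genes named by rule, were lower at an adjusted p under 0.05. In Scx+ tendon the same lists had medians of -0.77 for replication and -1.59 for mitosis. Uhrf1 lost its call without replicate 4 of day 7. The number of replication genes called was 17 after scaling by library totals and 20 on the authors' scale, 4 without replicate 1 of day 14 or without replicate 2 of day 7, 2 without replicate 4 of day 7 and 1 without the muscle-rich pair.

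Windows of the same kind were matched for 25 of the 30 replication genes. The letters TTTGGCGC or TTTCCCGC, which E2F factors are known to bind, were searched on both strands, and 10 of the 25 held one or both, as did 1.8% of the 27025 genes. For the 2 called genes of smallest p with a match, the windows are printed with the matching bases in capitals.
Mcm3, chr1:20820263-20820562, minus strand: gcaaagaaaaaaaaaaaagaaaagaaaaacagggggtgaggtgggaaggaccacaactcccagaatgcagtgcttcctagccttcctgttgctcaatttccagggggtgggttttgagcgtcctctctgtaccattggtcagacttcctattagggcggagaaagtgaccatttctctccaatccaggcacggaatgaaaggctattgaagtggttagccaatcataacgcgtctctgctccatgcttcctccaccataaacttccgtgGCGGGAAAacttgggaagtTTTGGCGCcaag
Mcm6, chr1:128359656-128359955, minus strand: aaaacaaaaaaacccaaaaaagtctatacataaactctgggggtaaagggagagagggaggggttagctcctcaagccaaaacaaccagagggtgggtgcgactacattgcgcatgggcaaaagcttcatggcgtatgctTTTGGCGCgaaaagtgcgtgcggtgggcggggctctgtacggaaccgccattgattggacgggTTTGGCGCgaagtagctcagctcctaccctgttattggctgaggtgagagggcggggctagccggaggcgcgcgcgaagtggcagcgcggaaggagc
Of the 8 called genes with a window, 4 held a match, among them Mcm6 with 2 before its start and Mcm3 with 2 after it.

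Some genes for making and modifying secreted collagen were lower, while the collagens themselves did not pass the test. Of 27 collagen processing genes 5 fell and none rose, with a median of -0.58, beside 3.86% lower over all tested genes. They were the prolyl 4-hydroxylase subunits P4ha1 and P4ha2, the prolyl 3-hydroxylase P3h1, the lysyl hydroxylase Plod3 and the galactosyltransferase Colgalt1. P4ha2 had 1825, 1581, 2242 and 2328 units in Scx- day 14, against 3334, 4001, 4331 and 3317 units in Scx- day 7 (-0.92 ± 0.19, adjusted p = 0.00995), and Plod3 had 3411, 2824, 4409.9 and 3644 units at day 14, against 6292, 5884, 6199.7 and 6418 units at day 7 (-0.81 ± 0.18, adjusted p = 0.0141). The days did not overlap in either gene. Of 28 secretory pathway genes the chaperone Hsp90b1, the disulfide isomerases Pdia4 and Pdia6 and the translocon subunit Sec61a1 fell, and the ER stress gene Herpud1 rose. All 5 lost their call without the muscle-rich pair, with the Scx- groups fitted alone, without replicate 1 of day 14 and without replicate 4 of day 7. The call was also lost without replicate 2 of day 14 (all but Pdia6), replicate 2 of day 7 (Pdia4, Sec61a1, Herpud1), replicate 1 of day 7 (Pdia4, Sec61a1) and replicate 3 of day 7 (Pdia4). None of 11 fibrillar collagen genes passed (median -0.39). Col1a1 had 507275, 282694, 1624017 and 750668 units at day 14 and 1335307, 897347, 1146929.7 and 871379 units at day 7, with replicate 3 of day 14 above all day 7 libraries and replicates 1, 2 and 4 below them (-0.69 ± 0.41, adjusted p = 0.338). None of the 5 collagen processing genes was called without the muscle-rich pair; 8 were called after scaling by library totals and 13 on the authors' scale. Leaving out replicate 3 of day 14 gave 9, and leaving out any other 1 of the Scx- libraries except replicate 4 of day 14 gave 2 or 3.

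Few genes of the matricellular, elastic fibre and mural cell lists passed the test. Of 23 matricellular genes 2 were lower and 11 had positive values, of 16 elastic fibre genes 2 were lower and 1 was higher, and of 12 mural cell genes 1 was lower and 7 had positive values, beside 3.86% lower over all tested genes. Tnc, the matricellular protein tenascin-C of loaded and healing tendon, had 12097, 5908, 18566 and 26376 units in Scx- day 14, against 47184, 38679, 32970.2 and 68132 units in Scx- day 7 (-1.72 ± 0.48, adjusted p = 0.0469). Wisp1, a CCN-family matricellular protein, had 1483, 731, 2614 and 3254 units at day 14, against 4105, 4988, 4444 and 7521 units at day 7 (-1.55 ± 0.39, adjusted p = 0.0281). In both genes replicate 2 was the lowest and replicate 4 the highest at day 14, and the days did not overlap. Among 16 elastic fibre genes the latent TGF-beta binding protein Ltbp2 had 2620.2, 2523, 3733 and 1721 units at day 14, against 8963, 17382, 4939 and 10422 units at day 7 (-1.89 ± 0.36, adjusted p = 0.00507). Emilin1, which sits at the elastin and microfibril interface, had 4231, 2706, 7362 and 5322 units at day 14, against 14529, 11102, 9675 and 11869 units at day 7 (-1.34 ± 0.28, adjusted p = 0.00971). Ltbp4, a relative of Ltbp2 needed for elastic fibre assembly, was higher, with 17193, 10907, 52028 and 18939.5 units at day 14, against 12178, 6187, 7074 and 5687 units at day 7 (1.48 ± 0.38, adjusted p = 0.0294), although replicate 2 of day 14 lay below replicate 1 of day 7. Acta2, the smooth muscle actin of mural cells and myofibroblasts, had 11078, 4127, 6054 and 7527 units at day 14, against 13341, 20960.5, 11489 and 32532 units at day 7 (-1.41 ± 0.36, adjusted p = 0.0268). Without the muscle-rich pair Tnc, Wisp1, Ltbp2, Emilin1 and Acta2 were not called, and Ltbp4 was. The call was also lost without replicate 1 or 2 of day 14 (Tnc, Wisp1), replicate 2 of day 14 (Acta2), replicate 1 or 3 of day 14 (Ltbp4), replicate 2 or 4 of day 7 (all 4 of these), replicate 1 of day 7 (Tnc) and replicate 3 of day 7 (Ltbp4).

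Tendon lineage genes gave no call among 14 members, with a median of 0.74 and 10 positive values. Tnmd, the tendon membrane protein tenomodulin, had 1155, 1240.2, 6323 and 6668 units in Scx- day 14 and 2198, 1039, 2435 and 1443 units in Scx- day 7 (0.73 ± 0.62, adjusted p = 0.518). Replicates 3 and 4 of day 14 were above every day 7 library, and replicates 1 and 2 were not. Fmod, the collagen-binding proteoglycan fibromodulin, had 11226, 12122, 60334 and 19780.4 units at day 14 and 30303, 6825, 9323 and 7845 units at day 7 (0.86 ± 0.55, adjusted p = 0.38), again with overlap. The homeobox gene Mkx had 411, 437, 1147 and 937 units at day 14 and 635, 413, 984 and 594 units at day 7 (0.08 ± 0.41, adjusted p = 0.933). In all 3 genes the muscle-rich replicates 1 and 2 of day 14 were lower than replicates 3 and 4.

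Rises were smaller and fewer, and many calls in either direction followed the muscle-rich pair. Among the 232 called rises, 143 or 61.6% had replicates 1 and 2 of day 14 both above replicates 3 and 4, against 31.0% of all tested genes. Among the 641 called falls, 271 or 42.3% had replicates 1 and 2 both below replicates 3 and 4, against 30.5% of all tested genes. The control mean was above the Scx- day 14 mean in 172 or 74.1% of the rises, against 46.0% of all tested genes. Mylk4, a myosin light chain kinase, was of this kind, with 9047, 19134, 4263 and 2697 units in Scx- day 14, against 432, 1325, 1300.3 and 139 units in Scx- day 7 (3.55 ± 0.99, adjusted p = 0.0498). So was Chac1, a glutathione-degrading enzyme induced by amino acid stress, with 1847, 2725, 411 and 263 units at day 14, against 178, 214, 128 and 112 units at day 7 (2.48 ± 0.61, adjusted p = 0.0251). Both were above day 7 in all 4 libraries, as the rule for naming the largest rises requires, and highest in replicates 1 and 2. Neither was called without that pair or without any 1 of replicates 1 and 2 of day 14 and 2 and 4 of day 7. Mylk4 also lost its call without replicate 3 of day 14 or replicate 1 of day 7, and Chac1 without replicate 3 of day 7. Of the 28 muscle fibre genes themselves none passed the test (median 2.06, 26 positive), nor did any of 34 respiratory chain genes, all of which had positive values (median 0.49). Of the muscle fibre genes named by rule, Myh1 (2.77) was higher in the authors' deposited table at an adjusted p under 0.05. Myh4 (1.14) did not pass that threshold there. With the mean log2 signal of the muscle fibre genes in each library as a covariate 84 rises were called, 71 of them among the 232. The same fit called 442 falls, 374 of them among the 641.

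Other rises did not have this order of libraries. Fbln7, a fibulin of the extracellular matrix, had 768, 1154, 6046 and 5037 units in Scx- day 14, against 442, 181, 318 and 74.7 units in Scx- day 7 (3.43 ± 0.76, adjusted p = 0.0155). Ackr4, a scavenger receptor that removes the chemokines CCL19 and CCL21, had 357, 359.9, 2004 and 2188 units at day 14, against 202, 81, 146 and 179 units at day 7 (2.57 ± 0.55, adjusted p = 0.0111), and its exons overlap Acad11 on the other strand. In both genes replicates 3 and 4 of day 14 were above replicates 1 and 2, and all 4 were above day 7, as the naming rule requires. Mmp3, the matrix metalloproteinase stromelysin-1, had 10872, 3179.7, 7082 and 8098 units at day 14, against 1828, 2376, 1646 and 1679 units at day 7 (1.84 ± 0.43, adjusted p = 0.0179). It was the only one of 15 matrix metalloproteinase genes called, beside 1.4% higher over all tested genes. Every day 14 library exceeded every day 7 library, as the rule for naming the largest rises requires. Adamts8, a secreted protease of the ADAMTS family, had 1246, 698, 1658 and 432 units at day 14, against 268, 328, 139.8 and 216 units at day 7 (1.96 ± 0.52, adjusted p = 0.0342). Slc2a12, the glucose transporter GLUT12, had 334, 393, 694 and 469 units at day 14, against 159, 139.8, 222 and 110.4 units at day 7 (1.56 ± 0.27, adjusted p = 0.00245). Of the 15 rises named by rule it was the one that kept its call under every setting tried, and its exons overlap Tbpl1 on the other strand. The call of Mmp3 was lost without replicate 1 of day 14 or replicate 4 of day 7, that of Fbln7 without replicate 2 or 4 of day 7, and that of Ackr4 without replicate 2 of day 7. Adamts8 lost its call on leaving out any 1 of 7 of the 8 libraries, all but replicate 4 of day 14.

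**Figure D3:**
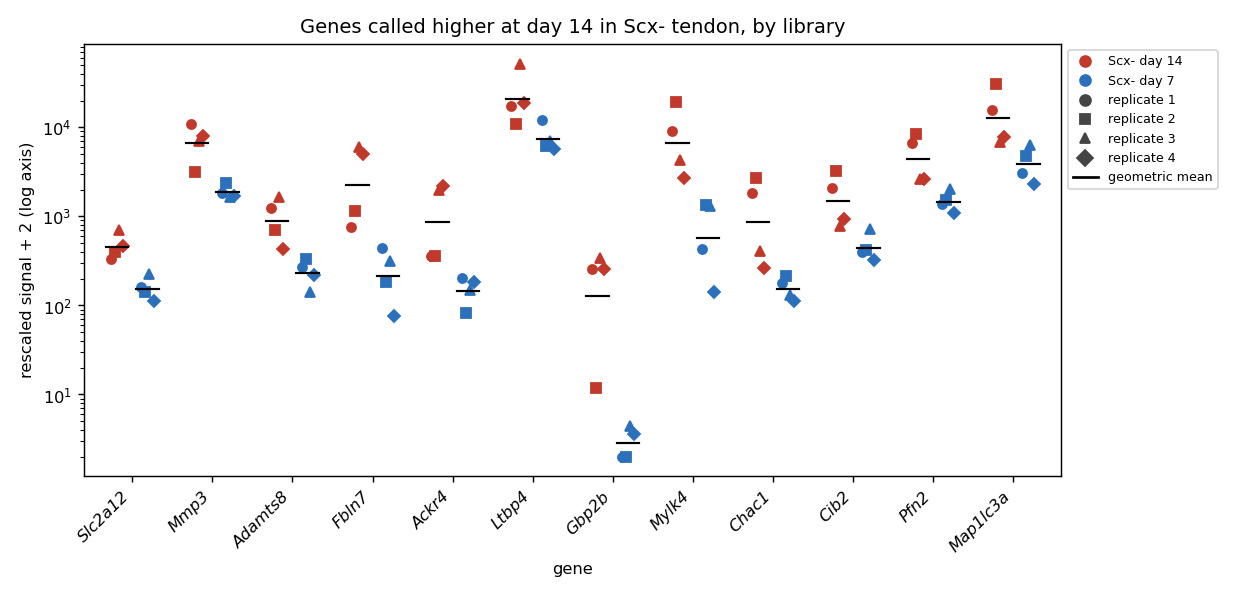
Rescaled signal plus 2 on a log axis for 12 genes called higher at day 14 in each Scx- library, drawn as in the plot of interferon genes. Slc2a12, Mmp3, Adamts8, Fbln7 and Ackr4 do not share the order of Mylk4, Chac1, Cib2, Pfn2 and Map1lc3a, in which replicates 1 and 2 of day 14 are highest, and Gbp2b is near 0 in all 4 day 7 libraries.

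**Figure D4:**
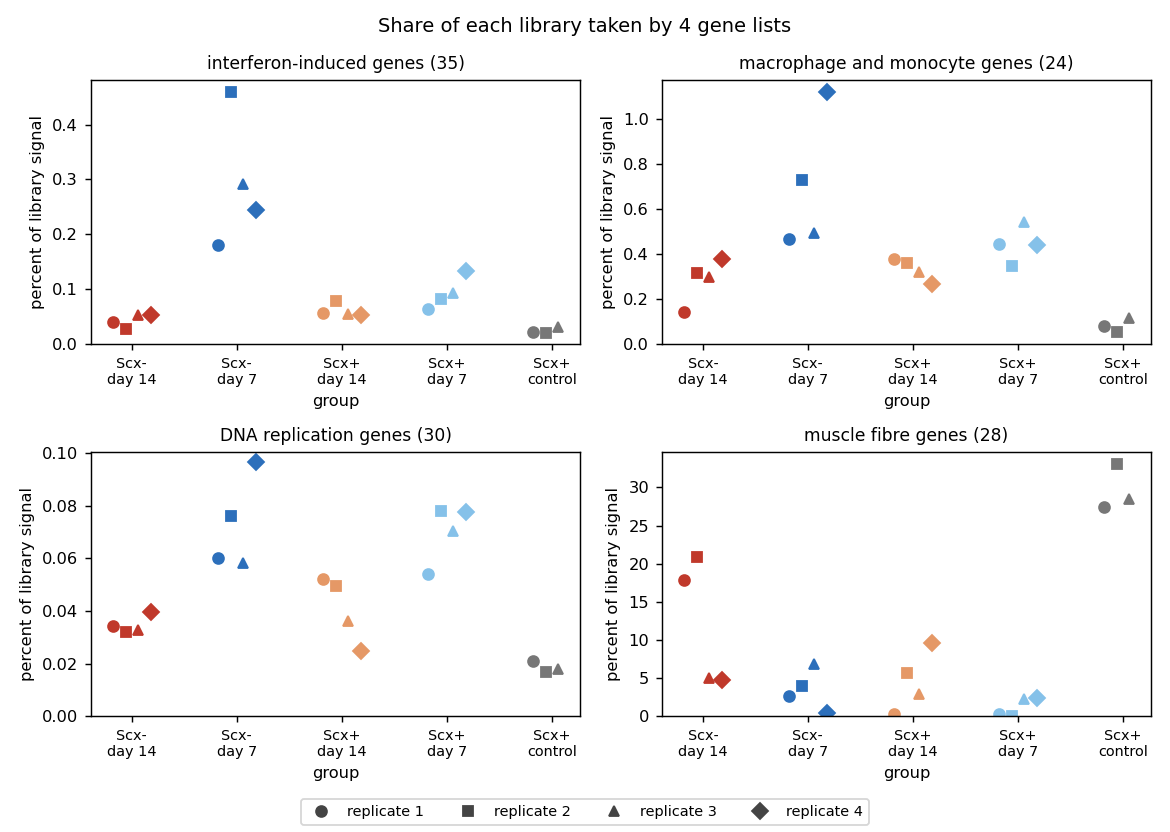
Percent of each library's signal taken by 4 gene lists in the 5 groups, with marker shape for the replicate. Interferon-induced genes reach 0.460% in Scx- day 7 and stay at or below 0.134% in every other group, and muscle genes reach 17.9% and 20.8% in replicates 1 and 2 of Scx- day 14 and 27.5% to 33.0% in the controls.

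The same days were compared in Scx+ tendon to see which changes the genotypes share. In Scx+ tendon 5 genes or 0.0301% were called, against 873 in Scx- tendon, and 1757 genes in Scx+ and 3636 in Scx- had an unadjusted p under 0.05. The authors' deposited table is less uneven, with 796 genes in Scx+ and 1443 in Scx- at an adjusted p under 0.05. The 5 genes called here, named after their values were seen, were Bpgm, Grk3 and Lmnb1, which were lower at day 14, and Scara5 and Gm15674, which were higher. The count of 5 was 616 with sample quality weights. It was 27, 3, 1 and 12 without replicate 1, 2, 3 or 4 of Scx+ day 14, and 1, 0 and 2 without replicate 2, 3 or 4 of Scx+ day 7, and since the groups share 1 estimate of the spread it was also 10 without replicate 3 of Scx- day 14 and 9, 10 and 14 without replicate 1, 3 or 4 of Scx- day 7. Grk3 and Lmnb1 were called in both genotypes, in the same direction. Of the 641 genes lower in Scx- day 14, 607 had a negative value in Scx+ (median -0.45), and of the 232 higher genes 220 had a positive value (median 0.47). The median of all tested genes in Scx+ was 0.0044. The 2 comparisons share no library.

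A call in one genotype and not in the other does not show that the changes differ, so the difference itself was tested. It passed for 3 genes or 0.018% of those tested, while 721 had an unadjusted p under 0.05. No difference was called when the 4 stimulated groups were fitted without the controls, or with sample quality weights. Irf7 had 880, 1002, 686 and 1246 units in the 4 Scx+ day 14 libraries, against 1589.6, 1493, 2259.5 and 2729 units in Scx+ day 7, a change of -1.07 ± 0.27. The difference, Scx- change minus Scx+ change, was -2.56 ± 0.38 (adjusted p = 0.0238). Ifit3 had 1003, 1569, 1242 and 592 units in Scx+ day 14, against 543, 1211, 809 and 2018 units in Scx+ day 7, a change of 0.03 ± 0.42, and a difference of -3.69 ± 0.60 (adjusted p = 0.0496). The Scx+ days overlapped for Ifit3, whose Scx- days were far apart at 578, 509.5, 788 and 614 units at day 14, against 5081, 17658, 8904 and 4716 units at day 7. Over the 35 interferon-induced genes the difference was negative in 35, with a median of -1.92, and the medians were -2.78 in Scx- and -0.50 in Scx+.

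The changes of Bpgm had opposite signs in the 2 genotypes, and the one in Scx+ passed the test. The gene encodes bisphosphoglycerate mutase, which makes 2,3-bisphosphoglycerate, mostly in red cells, and lies on chromosome 6 from 34476207 to 34505613 (GRCm38). It had 1325, 1485, 1310.2 and 1573 units in Scx- day 14, against 577, 698, 963 and 662 units in Scx- day 7 (0.99 ± 0.31, adjusted p = 0.073). In the authors' deposited table Bpgm was higher at Scx- day 14 (1.04) at an adjusted p under 0.05. In Scx+ tendon it had 1031, 957, 1016 and 1216 units at day 14, against 3049, 10206, 5472 and 2257 units at day 7 (-2.07 ± 0.31, adjusted p = 0.0156). The days did not overlap in either genotype, and the difference of 3.07 ± 0.44 passed the test (adjusted p = 0.0238). Of 15 red cell genes other than globins, none was called in Scx- (median 0.89, against -1.29 in Scx+). The share of signal of this list was 0.0681%, 0.0677%, 0.0326% and 0.0345% in replicates 1 to 4 of Scx- day 14. It was 0.0227% to 0.0445% in Scx- day 7 and 0.0996% to 0.115% in the controls. Replicates 1 and 2 of day 14 are the muscle-rich pair, and the part of muscle in the Scx- median was not tested. The number of genes with a called difference was 0 without any one of replicates 3 and 4 of Scx- day 14, replicate 2 of Scx- day 7, replicates 1 and 2 of Scx+ day 14 and replicate 3 of Scx+ day 7, and 37 without replicate 1 of Scx- day 7. It was 1 without replicate 3 of Scx- day 7, replicate 3 of Scx+ day 14 or replicate 1 or 2 of Scx+ day 7.

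**Figure D5:**
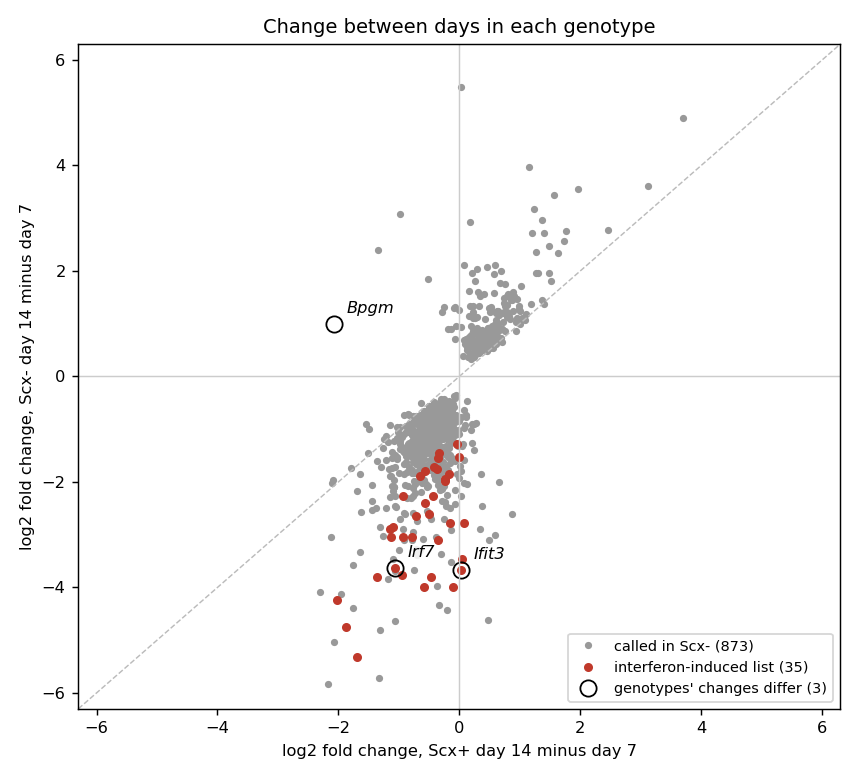
Log2 fold change of day 14 minus day 7 in Scx- tendon (vertical) against the same in Scx+ tendon (horizontal) for the 873 genes called in Scx-, with the 35 interferon-induced genes in red and the 3 genes whose changes differ between genotypes circled. Irf7 and Ifit3 lie far below the dashed line of equal change and Bpgm above it, with changes of 0.99 in Scx- and -2.07 in Scx+.

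Of 15951 genes in the authors' deposited table, 1443 had an adjusted p under 0.05 for Scx- day 7 to day 14, of which 508 were higher and 935 lower at day 14. For Scx+ day 7 to day 14 the number was 796. Of the 873 genes called here 858 are listed in that table, and 727 of them are under 0.05 there as well, all 727 with the same sign. All 35 interferon-induced genes are lower in the authors' deposited table at that threshold.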

How the data were processed

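The 19 libraries were made from total RNA of plantaris tendon. For each gene and library the authors deposited a signal scaled in a way that is not stated, and per the submitters' processing notes FastQC, STAR, DESeq2 and the build mm10 were used, with no version or role stated. The signal is not whole: 37.3% to 63.4% of low values lay within 0.1 of a multiple of the library's smallest step, so reads could not be recovered, the depth behind a value is unknown, no counting interval is given, and no count test was run. The other table of the authors holds mean signals, log2 fold changes with standard errors and adjusted p-values (deposited, adjustment not stated).

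Median ratios over 13703 genes, those with no value of 0, gave the factors for rescaling. Of 24972 genes listed, 4029 were at 0 throughout, and 16625 reached 10 units in 3 or more libraries. These were tested on log2(value + 2), which understates changes of low genes. All 5 groups entered 1 fit in limma 3.58.1 (R 4.3.3; trend, robust), with Benjamini-Hochberg adjustment over all tested genes, a threshold of 0.05, and no covariate. Fold changes are log2, day 14 minus day 7, ± SE, with n = 4 each. The procedure was also run on simulated data with independent noise for each gene. Those data had no scale offset and no muscle-rich pair, so they cannot show how the procedure handles either.

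The 49 gene lists, the comparison and the tests were chosen with earlier results of these data known, so no list is independent support for its direction. Named genes are 7 tendon genes (Fmod, Tnmd, Mkx, Scx, Col3a1, Col1a2, Col1a1), the 15 largest called rises and falls whose mean reaches 5 ppm, whose libraries stand apart between days and whose symbol is not a clone, Rik or Gm name, up to 6 called members of each list by p (or the 2 of highest signal), and genes whose change differs between genotypes; some are not reported here, and other list members are given as log2 values alone. Promoters come from RefSeq (GRCm38.p6) and positions from GENCODE M21. Other scalings, filters, pseudocounts, fits and left-out libraries were tried as alternatives. Strand handling of the counting is not given in the sources used here.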

Additional observations from a re-analysis of the deposited data

Results flagged for a closer look

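In 7 of 180 sets of 4 libraries, 1 library lay so far from the other 3 that its gap passed Dixon's 95% limit, and chance alone gives this in about 1 of 20 sets. On the log2 scale the gap was 0.915 of the range for Gbp2b and 0.881 for Rsad2, each with replicate 2 of Scx- day 14 lowest, and 0.853 for Nkg7, with the same replicate highest. Replicate 1 of Scx- day 14 was lowest in Cd74 (0.852) and in C5ar1 (0.891). Replicate 4 of Scx- day 7 was highest in Ctsc (0.851) and in the share of signal taken by the collagen processing genes (0.832). The change from day 7 to day 14 differed between genotypes for 3 genes by the test of the difference in limma, with Scx- minus Scx+ values of -2.56 for Irf7, -3.69 for Ifit3 and 3.07 for Bpgm.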

How the results depend on the processing

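None of the 102 called genes that the naming rule yields reversed its sign under the settings run, and 27 kept their call in every one. The main counts of 873 called, 232 higher and 641 lower became 1349, 114 and 1235 after scaling by library totals, 2604, 112 and 2492 on the authors' scale, 317, 27 and 290 with the Scx- groups fitted alone, 281, 82 and 199 without the muscle-rich pair, 526 and 84 (called, higher) with muscle as a covariate, and 121 higher with sample weights. With 1 library left out they ranged over 370 to 1481, 61 to 585 and 309 to 896. The total was 427 without replicate 1, 555 without replicate 2 and 1481 without replicate 4 of Scx- day 14, and 370 without replicate 2 and 380 without replicate 4 of Scx- day 7. Higher calls were 394 without replicate 3 of day 14 and 140 without replicate 1 of day 7. Fewer samples and the other scaling are part of these settings, and otherwise the cause was not tested.

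Same-numbered day 14 and day 7 libraries had correlations of deviations of 0.087, 0.232, -0.165 and 0.35, against -0.336 to 0.273 for libraries of different numbers. So few values cannot show whether the replicate numbers pair the samples. With the replicate block the Scx- groups alone gave 254 called, 22 higher and 232 lower, and 5 GTPases, 4 MHC class I, 4 replication, 0 collagen processing and 8 macrophage genes.

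Interferon-induced genes called lower stayed at 25 to 35. GTPases were 4 with the groups alone, 3 without the pair and 5 to 8 with 1 library left out. MHC class I was 7 with the groups alone and 7 without the pair. Replication genes were 17 by totals, 20 on the authors' scale, 4 with the covariate, 1 without the pair and 2 to 9 with 1 library left out. Collagen processing was 8 by totals, 13 on the authors' scale, 2 alone, 2 with the covariate, 1 with weights, 0 without the pair and 2 to 9 with 1 library left out. Macrophage genes were 20 on the authors' scale, 2 alone, 6 with the covariate, 5 without the pair and 5 to 15 with 1 library left out. Chemokines were 5 with the covariate, 2 without the pair and 5 to 9 with 1 library left out.

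The genes with a called difference between genotypes, 3 in the main test, were 0 in the 4 stimulated groups fitted without the controls, 0 with weights and 0 to 37 with 1 library left out. Scx+ calls, 5 in the main test, were 11 with TMM, 28 on the authors' scale, 19 without a filter, 14 with a mean of at least 1 ppm, 21 with a pseudocount of 10, 9 without the controls, 24 with the covariate, 616 with weights, 22 without the pair and 0 to 27 with 1 library left out, the Scx+ libraries having been added to that set after seeing the data. The difference in mean Scx signal, -6.48 units, was -8.02 by totals, -6.69 with TMM, -7.22 on the authors' scale and -7.98 to -4.15 with 1 library left out, and reached the smallest exact p of 0.0286 in these scalings and without replicate 4 of day 7.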

Other observations

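Other immune and metabolic lists held a few falls, beside 3.86% lower and 1.4% higher over all tested genes. Of 14 complement genes 4 fell and none rose, with a median of 0.14, and 9 of the 14 values were positive. C3ar1, the receptor of the C3a fragment, had 1270.4, 2258, 2183 and 2529 units in Scx- day 14, against 5402, 9512, 7061 and 13260.1 units in Scx- day 7 (log2 fold change -2.06 ± 0.28, limma adjusted p = 0.00043), with no overlap. The other 3 were the C5a receptor C5ar1 and the activators Cfb and Cfp, which all lost their call without the muscle-rich pair, without replicate 1 of day 14 and without replicate 2 or 4 of day 7. Cfb also lost it without replicate 2 or 4 of day 14 or replicate 1 of day 7. Of 12 genes of lysosomal proteases and collagen uptake 4 fell and none rose (median -0.51), namely Ctsc, Ctsh, Ctsz and the asparaginyl endopeptidase Lgmn. The 3 cathepsins lost their call without the muscle-rich pair, without replicate 1 of day 14 and without replicate 2 or 4 of day 7, and Ctsh also without replicate 2 of day 14. Lgmn had 11645, 18812, 14635 and 18225 units at day 14, against 26886, 39365, 24755 and 46124 units at day 7 (-1.09 ± 0.20, adjusted p = 0.00339). Hmox1, the haem-degrading oxygenase, had 2418, 5115, 2154 and 5309.8 units at day 14, against 9415, 22037, 10303 and 20612 units at day 7 (-2.07 ± 0.48, adjusted p = 0.0185). Hmox1 lost its call without replicate 1 of day 14, without replicate 2 or 4 of day 7 and without the muscle-rich pair. It was the 1 called gene of 11 iron genes.

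Among 23 glycolysis and hypoxia genes Eno1, Pgam1 and Pfkl fell and none rose, beside 3.86% lower over all tested genes. Of the 23 values 15 were positive (median 0.24). Eno1, the glycolytic enolase, had 6018, 5411, 4775 and 6047 units at day 14, against 9569.6, 9866, 10733 and 10612 units at day 7 (-0.88 ± 0.19, adjusted p = 0.0124), and was not called without the muscle-rich pair. Pgam1 and Pfkl were not called without that pair either, nor without replicate 1 of day 14 or replicate 2 or 4 of day 7, and Pfkl also not without replicate 2 of day 14 or replicate 3 of day 7. Endothelial genes gave no call, although all 14 had positive values (median 0.60). Pecam1, an adhesion molecule of endothelial cells, had 12801, 5011, 11034.5 and 7882 units at day 14 and 7229, 5310.2, 4458 and 3396 units at day 7, with overlapping groups (0.82 ± 0.35, adjusted p = 0.187). Adipocyte genes had a similar median of 0.60 with no call among 12. Most called genes stood outside the lists, 520 of the 641 falls and 225 of the 232 rises.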
